A study of Homo sapiens and Mus musculus with 21 samples.

Results

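Transcripts of 10 human genes of the YAP and TEAD pathway were followed through 18 tumour xenografts of 2 colon carcinoma lines. The 10 genes are YAP1, WWTR1, TEAD1, TEAD4, ANKRD1, AMOTL1, AMOTL2, AXL, LATS2 and AJUBA, a list drawn up as pathway genes and targets and matched by symbol in GENCODE release 29. All 10 were found among the 58381 human identifiers, and all 10 were among the 22981 genes tested, those that reached 1 TPM in 3 or more libraries. TPM is an abundance scaled by transcript length and set so that each library has the same total.

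The human lines SW620, from a lymph node metastasis, and SW480, from the primary colon tumour of the same patient, were grown in the caecum wall of immunodeficient NSG mice, and the frozen caecum was sequenced on day 28 after injection. SW620 tumours were of 4 groups: cells transduced with dnLEF1, a LEF1 made dominant negative so that it occupies Wnt target genes without activating them; LRP6KO cells, transfected with CRISPR reagents for LRP6, a co-receptor of Wnt ligands, selected with puromycin and sorted for low LRP6 protein; Cas9 cells, the sorted control of that CRISPR transfection; and Mock cells, the control of the dnLEF1 transduction. SW480 tumours carried dnLEF1 or Mock. Each of the 6 groups had 3 libraries, and the 3 PBS-injected samples among the 21 of the series had no human values. The labels do not say whether the modified cells were pools or single clones, which promoter drove dnLEF1, or whether each library came from its own mouse, so the p-values measure the spread between these libraries. The host mouse supplied the stroma of these tumours. The human values come from a separate human table, and whether mouse reads were counted in it was not tested.

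YAP1 and WWTR1, whose protein is called TAZ, are coactivators without a DNA-binding domain of their own, and they switch on genes by binding the TEAD transcription factors. The Hippo kinases, ending in LATS1 and LATS2, phosphorylate them and keep them out of the nucleus, and the angiomotin family, AMOT, AMOTL1 and AMOTL2, holds them in the cytoplasm or at cell junctions. In the intestine the pathway is known for its part in regeneration after injury, and it is known to meet Wnt signalling at several points.

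The TEAD proteins are known to bind the word GGAATG, and LEF1 and its TCF relatives words that begin with CTTTG and go on with any 2 letters drawn from A and T. These words were looked for on both strands in RefSeq promoter windows of GRCh38.p14, from 250 bases before to 50 after an annotated start. The 250 bases before the start are shown for AMOTL2 and ANKRD1, the members with a call in SW480 dnLEF1 tumours, and for CTGF (now CCN2), a well-known TEAD target outside the 10 genes. Capitals mark the searched words, read 5′ to 3′ along each gene; CATTCC is GGAATG on the other strand. The AMOTL2 stretch is chr3:134374448-134374697, the ANKRD1 stretch chr10:90921088-90921337 and the CTGF stretch chr6:131951373-131951622, all on the minus strand.
AMOTL2: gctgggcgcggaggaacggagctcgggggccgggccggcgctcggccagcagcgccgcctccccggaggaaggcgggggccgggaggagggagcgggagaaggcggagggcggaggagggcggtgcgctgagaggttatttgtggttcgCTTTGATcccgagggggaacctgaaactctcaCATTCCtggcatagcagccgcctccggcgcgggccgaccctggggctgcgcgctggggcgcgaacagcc
ANKRD1: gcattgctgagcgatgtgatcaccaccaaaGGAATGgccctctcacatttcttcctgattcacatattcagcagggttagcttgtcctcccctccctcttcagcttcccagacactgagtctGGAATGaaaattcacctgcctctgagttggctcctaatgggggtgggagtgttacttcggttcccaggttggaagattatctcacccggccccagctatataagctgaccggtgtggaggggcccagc
CTGF: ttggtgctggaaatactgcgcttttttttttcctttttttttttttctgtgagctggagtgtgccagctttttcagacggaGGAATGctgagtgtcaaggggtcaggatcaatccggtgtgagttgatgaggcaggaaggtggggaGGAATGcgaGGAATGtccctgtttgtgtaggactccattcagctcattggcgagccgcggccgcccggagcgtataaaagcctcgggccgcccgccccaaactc

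AMOTL2 has 2 annotated starts with a window. The stretch shown held both kinds of word, CTTTGAT beginning 101 bases and CATTCC 69 bases before its start, and the window of the other start, chr3:134375368-134375667, held neither. ANKRD1 held GGAATG at 220 and 128 bases before its start and no TCF and LEF word, and CTGF held GGAATG at 169, 104 and 95 bases. These distances are from the RefSeq start. In GENCODE 29 the ANKRD1 gene reaches 90921276, so its match at 128 bases lies within that span. Among the member genes, 8 had a window and TEAD1 and TEAD4 are named only. GGAATG stood in 6 of the 12 windows of these 8 genes, against 14.0% of all 35116 windows. The 6 genes were AMOTL2, ANKRD1, YAP1, LATS2, AJUBA and AXL. The matches of the last 4 genes are shown with 12 bases on either side, because they let the surroundings of the word be compared between members. AJUBA and AXL each have another window further upstream, chr14:22982502-22982801 and chr19:41218973-41219272, which held neither kind of word. YAP1 lies at chr11:102110273-102110302 on the plus strand, LATS2 at chr13:21061560-21061589 and AJUBA at chr14:22976884-22976913 on the minus strand, and AXL at chr19:41226531-41226560 on the plus strand.
YAP1: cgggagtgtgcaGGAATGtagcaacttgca
LATS2: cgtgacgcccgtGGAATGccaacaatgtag
AJUBA: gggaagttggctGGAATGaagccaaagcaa
AXL: cagactttgcacCATTCCactccctccgct

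A TCF and LEF word stood in 3 of the 12 windows, at AMOTL2 and at 2 separate starts of WWTR1, against 13.8% of all windows. The WWTR1 matches, at chr3:149703441-149703471 and chr3:149658022-149658052 on the minus strand, are shown because WWTR1 was the member called higher in SW620 dnLEF1 tumours. None of the searched TEAD and TCF or LEF words overlapped each other in the member windows. A match says that these letters are there, and not that a factor binds them.
WWTR1, upstream start: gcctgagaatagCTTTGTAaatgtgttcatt
WWTR1, downstream start: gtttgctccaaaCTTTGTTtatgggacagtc

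Each library summed to 1000000 TPM, so the sequencing depth behind a value is unknown. SW620 LRP6KO replicate 1 and SW480 Mock replicate 2 stood apart, with 34114 and 34709 human genes above 0 against 24665 to 29691 in the other 16 libraries, and member counts are given below with and without them. LEF1 transcripts were at 18.25 to 23.98 TPM in SW620 dnLEF1 against 0.30 to 0.80 TPM in SW620 Mock, and at 47.20 to 99.36 TPM in SW480 dnLEF1 against 5.09 to 14.75 TPM in SW480 Mock. AXIN2, a Wnt feedback inhibitor also planned as a check, was at 25.69 to 32.51 TPM in SW480 dnLEF1 against 48.18 to 62.02 TPM in SW480 Mock. It was called lower there by limma (adjusted p 0.0147). In SW620 dnLEF1 AXIN2 was at 19.20 to 33.98 TPM against 24.28 to 29.72 TPM in SW620 Mock, and limma did not call it (adjusted p 0.897). LRP6 was at 17.45 to 21.12 TPM in LRP6KO against 10.93 to 17.83 TPM in Cas9. The LRP6 transcript thus gives no check of that label, which rests on sorting by protein. The summed level of 9 markers of colorectal carcinoma cells was 7544.19 to 18304.52 TPM. Most of that sum, here and below, was the keratins KRT8, at 3429.43 to 8213.55 TPM, and KRT18, at 3799.10 to 9551.67 TPM. KRT20, CDH17 and LGALS4 stayed at 3.84 TPM or less in every library. The summed level of 20 markers of fibroblasts, endothelium, muscle and leukocytes was 42.67 to 162.67 TPM. These 20 mark cells that a carcinoma line should lack. Their reads may be those of the mouse host or of the tumour cells themselves, which was not tested. LUM among them was at 2.21 to 10.38 TPM in the SW620 libraries and 0.00 to 0.34 TPM in the SW480 libraries. In bulk tissue, fewer cells of a type and less RNA per cell cannot be told apart.

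How do the lines differ in this pathway without an added gene? In SW620 Mock against SW480 Mock, 5 of the 10 genes were called at an adjusted p under 0.05 by limma, against 23.9% of all genes tested. SW620 Mock tumours had more TEAD4 and AJUBA, and less WWTR1, TEAD1 and ANKRD1. The median log2 change of the 10 genes was -0.63, and that of all genes -0.14. The line and its culture history cannot be told apart, and this comparison shares its Mock libraries with the dnLEF1 comparisons. All 5 calls held in each of the 12 alternatives run, 6 settings and 6 libraries left out in turn. The count was also 5 without both gene-rich libraries and with libraries weighted by the spread of their line. In data simulated with each line's own spread, the share of false calls in this comparison exceeded the threshold of 0.05. Few genes were made to change in the simulation, so that share need not hold for the real calls.

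**Figure D1:**
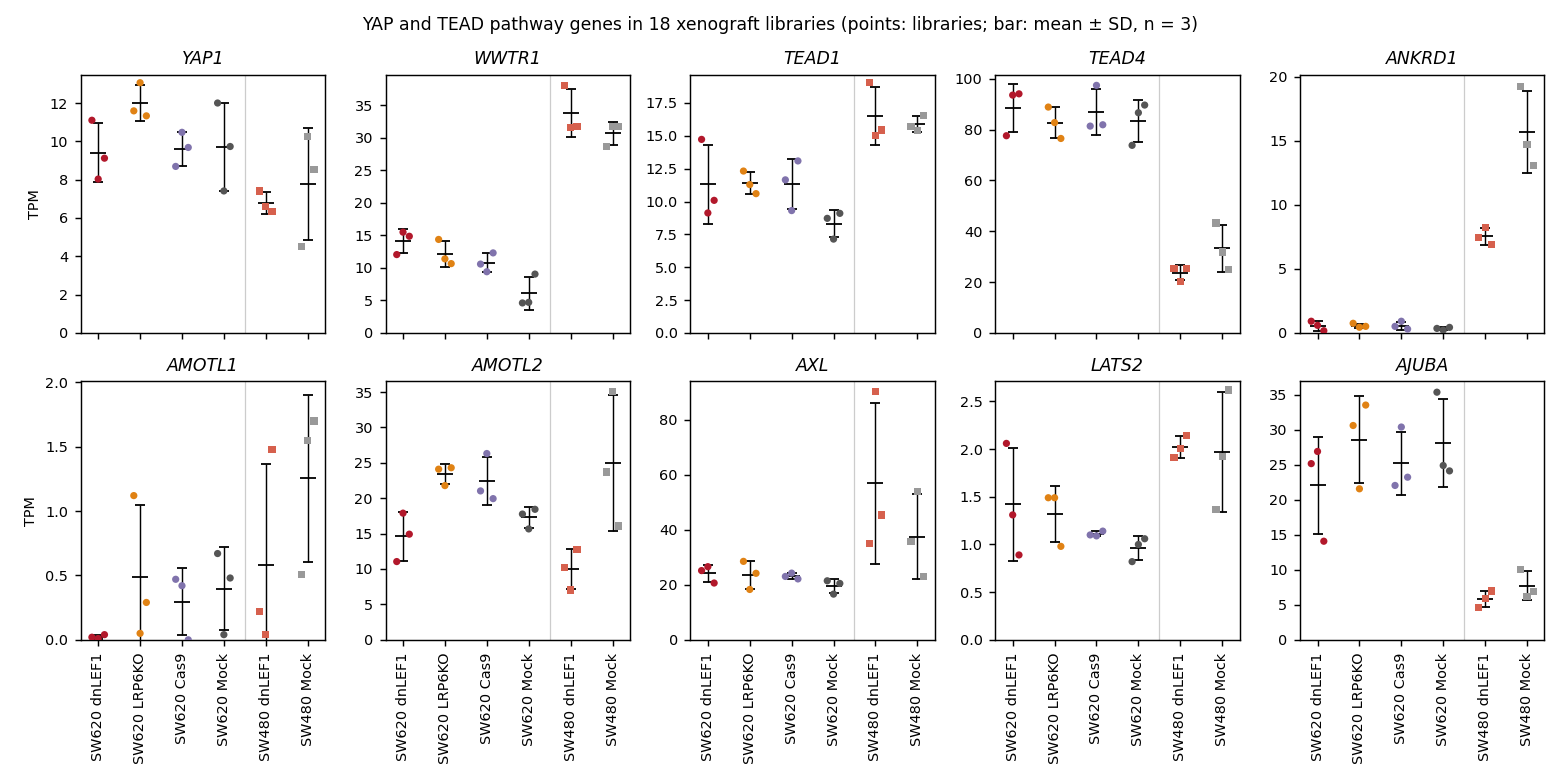
TPM of the 10 genes in each library (points), with the mean and SD of each group of 3 as bars; bars that would pass below 0 end at the axis. TEAD4 and AJUBA lie higher in all 12 SW620 libraries (circles) than in all 6 SW480 libraries (squares), and WWTR1, TEAD1 and ANKRD1 lie lower, with WWTR1 at 4.61 to 15.50 TPM in SW620 and 28.68 to 38.03 TPM in SW480.

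The coactivators were unequal between the lines. WWTR1 (ENSG00000018408.14, chromosome 3, 149517235 to 149736714 in GRCh38) had 4.61, 4.70 and 9.05 TPM in SW620 Mock and 28.68, 31.71 and 31.76 TPM in SW480 Mock. All 3 SW620 Mock libraries lay below all 3 SW480 Mock libraries. The log2 change was -2.21 (SE 0.21, adjusted p 8.88e-07), on the log2(TPM + 1) scale used throughout, which understates the change of low genes. YAP1 (ENSG00000137693.13, chromosome 11, 102110461 to 102233423) had 12, 7.41 and 9.73 TPM in SW620 Mock and 4.53, 10.24 and 8.54 TPM in SW480 Mock. These libraries were interleaved, and the log2 change of 0.33 had an interval of -0.17 to 0.83 (95%).

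Summed over YAP1 and WWTR1, SW620 Mock had 15.83 ± 3.40 TPM and SW480 Mock 38.49 ± 4.64 TPM (SD, n = 3 each). WWTR1 held 38.3% ± 10.2 of that sum in SW620 Mock and 80.3% ± 5.5 in SW480 Mock (SD, n = 3 each). Over all groups the WWTR1 share was 27.8% to 65.9% in the 12 SW620 libraries and 75.6% to 86.4% in the 6 SW480 libraries, with no overlap. YAP1 was the more abundant of the pair in all 3 SW620 Mock libraries and in none of the 6 SW480 libraries. In the other SW620 groups the YAP1 share was 34.1% to 47.9% in dnLEF1, 44.0% to 52.7% in Cas9 and 44.6% to 53.4% in LRP6KO.

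Among the TEAD factors, which carry the DNA-binding domain, the lines differed in opposite directions for TEAD4 and TEAD1. TEAD4 (ENSG00000197905.8, chromosome 12, 2959330 to 3040673) had 73.81, 86.64 and 89.66 TPM in SW620 Mock and 43.21, 31.80 and 25.01 TPM in SW480 Mock. The groups did not overlap, and the log2 change was 1.33 (SE 0.17, adjusted p 2.72e-05). TEAD1 (ENSG00000187079.16, chromosome 11, 12674591 to 12944483) had 8.72, 7.14 and 9.10 TPM in SW620 Mock and 15.74, 15.42 and 16.54 TPM in SW480 Mock. Every SW620 Mock library was below every SW480 Mock library, with a log2 change of -0.86 (SE 0.19, adjusted p 0.00245).

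TEAD4 was the most abundant TEAD transcript in all 18 libraries. It held 86.0% ± 0.3 of the summed TPM of TEAD1, TEAD2, TEAD3 and TEAD4 in SW620 Mock and 61.1% ± 6.9 in SW480 Mock (SD, n = 3 each). The sum itself was 96.94 ± 9.86 TPM in SW620 Mock and 53.94 ± 8.82 TPM in SW480 Mock (SD, n = 3 each). TEAD1 held 8.7% ± 1.6 in SW620 Mock and 30.1% ± 5.8 in SW480 Mock (SD, n = 3 each). TEAD2 and TEAD3, at 2.27 to 2.98 TPM on average in SW620 Mock and 2.05 to 2.65 TPM in SW480 Mock, were not called. The TEAD4 share was lowest in SW480 dnLEF1, at 43.1% to 51.2%, below the 55.0% to 68.5% of SW480 Mock. That share does not reflect TEAD4 alone. TEAD2 averaged 5.28 TPM in SW480 dnLEF1 and 2.65 TPM in SW480 Mock, and TEAD3 4.22 and 2.05 TPM. TEAD2, TEAD3 and TEAD4 were not called in that comparison.

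**Figure D2:**
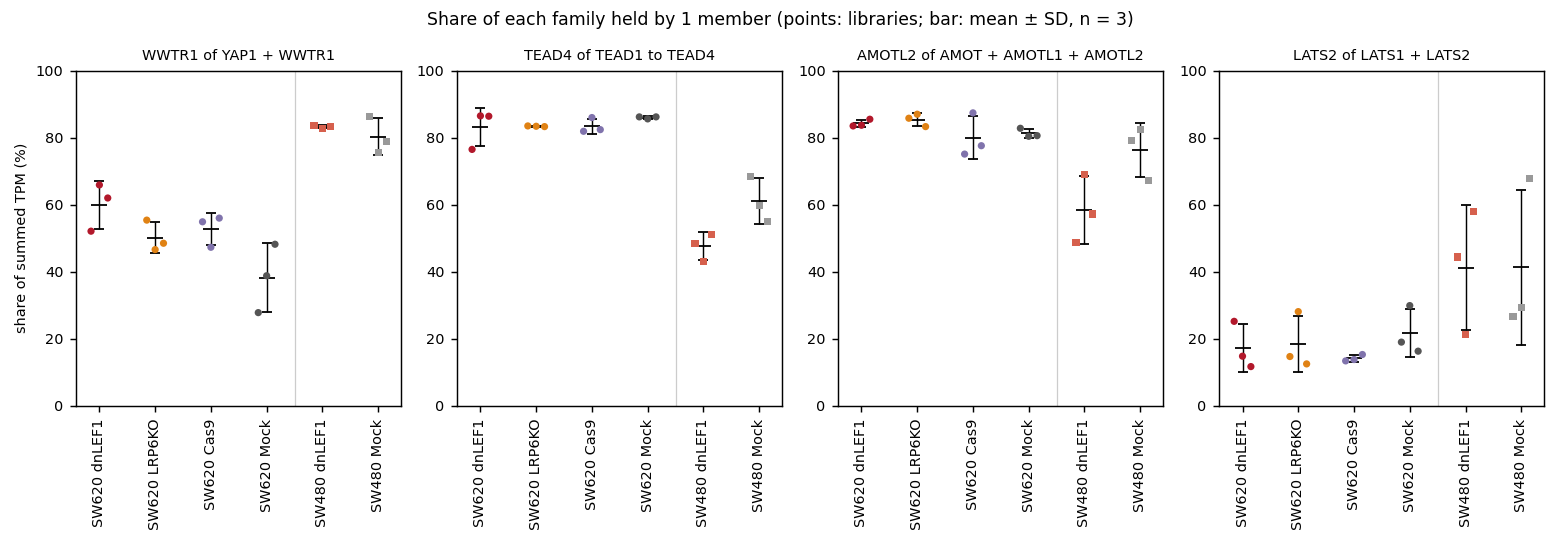
Share of each family's summed TPM held by WWTR1, TEAD4, AMOTL2 and LATS2 in each library (points), with the mean and SD of each group of 3. The WWTR1 and TEAD4 shares separate all SW620 libraries from all SW480 libraries, in opposite directions, while the AMOTL2 and LATS2 shares overlap between the lines.

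Of the regulators, AJUBA, a LIM-domain protein known to bind and restrain LATS kinases, was the one called. AJUBA (ENSG00000129474.15, chromosome 14, 22971174 to 22982642) had 35.39, 24.91 and 24.14 TPM in SW620 Mock and 10.08, 6.19 and 6.94 TPM in SW480 Mock. The groups were well apart, with a log2 change of 1.74 (SE 0.26, adjusted p 1.06e-04), and the lowest of all 12 SW620 libraries, at 14.09 TPM, was still above the highest SW480 library at 10.08 TPM. LATS2 (ENSG00000150457.8, chromosome 13, 20973032 to 21061547), a kinase that phosphorylates YAP1 and is itself a known target gene, had 0.82, 1.00 and 1.06 TPM in SW620 Mock and 1.37, 1.92 and 2.62 TPM in SW480 Mock. These libraries did not overlap, but the log2 change of -0.58 (SE 0.23) missed the threshold at an adjusted p of 0.0866, and it passed without SW480 Mock replicate 1 (adjusted p 0.0477).

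LATS1 exceeded LATS2 in most libraries, and LATS2 held 11.7% to 29.9% of their sum in SW620 and 21.3% to 67.9% in SW480. AMOTL1 (ENSG00000166025.17, chromosome 11, 94706431 to 94876753) was scarce in every library, at 0.00 to 1.12 TPM in SW620 and 0.04 to 1.70 TPM in SW480. AMOTL1 was called in no comparison. AMOTL2 (ENSG00000114019.14, chromosome 3, 134355874 to 134375479), both an inhibitor and a known target, had 17.76, 15.66 and 18.43 TPM in SW620 Mock against 23.71, 35.09 and 16.08 TPM in SW480 Mock. The groups overlapped, with a log2 change of -0.44 (SE 0.25, adjusted p 0.238), and a call was made only without SW480 Mock replicate 3 (adjusted p 0.0471).

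ANKRD1, a nuclear ankyrin-repeat protein widely used as a readout of YAP and TEAD activity, had the largest change of the 10 genes between the lines. ANKRD1 (ENSG00000148677.6, chromosome 10, 90912096 to 90921276) had 0.35, 0.21 and 0.43 TPM in SW620 Mock and 19.21, 14.69 and 13.08 TPM in SW480 Mock. The log2 change was -3.63 (SE 0.24, adjusted p 1.42e-08), and it was -5.21 when 0.1 replaced 1 as the amount added before the logarithm. No SW620 library of any group exceeded 0.91 TPM, and no SW480 library fell under 6.87 TPM.

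AXL (ENSG00000167601.11, chromosome 19, 41219203 to 41261766), a receptor tyrosine kinase and known YAP target, had 21.44, 16.60 and 20.48 TPM in SW620 Mock and 35.78, 53.79 and 23.01 TPM in SW480 Mock. The groups did not overlap, yet the SW480 libraries were widely spread and the log2 change of -0.84 (SE 0.31) had an adjusted p of 0.0591. AXL passed the threshold with median-ratio scaling (adjusted p 0.0383), with array weights (adjusted p 0.0302) and without SW480 Mock replicate 3 (adjusted p 0.014). The 9 carcinoma markers summed to 13038.96 to 14516.73 TPM in SW620 Mock and 14603.31 to 18304.52 TPM in SW480 Mock, and the 20 stromal markers to 72.34 to 76.55 TPM in SW620 Mock and 68.13 to 162.67 TPM in SW480 Mock. The 7 fibroblast markers among them summed to 13.00 to 16.88 TPM in SW620 Mock and 5.04 to 14.31 TPM in SW480 Mock. Of the 5 tested, 2 had changes above 0, both called, and 3 had changes below 0. LUM was at 0 in all 3 SW480 Mock libraries. The 5 muscle markers summed to 36.51 to 47.39 TPM in SW620 Mock and 48.88 to 97.12 TPM in SW480 Mock, without overlap. Of these, 3 were called, 1 higher and 2 lower in SW620 Mock. Among the 7 tested carcinoma markers 2 were called, 1 higher and 1 lower. Of 2 tested endothelial markers 1 was called, higher, and no leukocyte marker was called. The part of these levels in the differences was not tested.

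**Figure D3:**
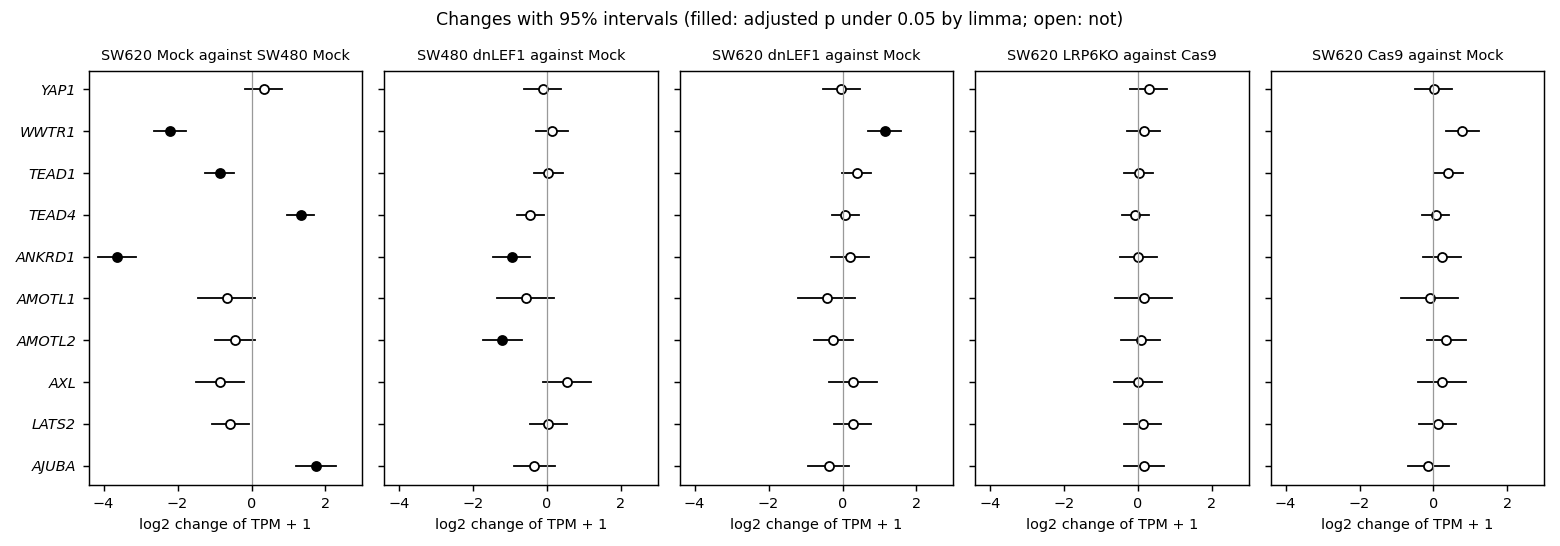
Log2 changes of TPM + 1 for the 10 genes in 5 comparisons, with 95% intervals; filled points have an adjusted p under 0.05 by limma over all genes. The line comparison has 5 filled points, SW480 dnLEF1 against Mock has 2, SW620 dnLEF1 against Mock has 1, and the LRP6KO and Cas9 panels have none.

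What does dnLEF1 change in these genes in SW480 tumours? AMOTL2 and ANKRD1 lay lower in SW480 dnLEF1, and the fit over all groups called these 2 of the 10 genes, against 2.23% of all genes. That fit pools the spread of both lines, and the SW480 libraries varied more: the median SD of a gene was 0.35 and 0.41 log2 units in the SW480 groups and 0.23 to 0.30 in the SW620 groups. In data simulated with each line's own spread, more of its calls in this comparison were false than true. Few genes were made to change in those data, so that share need not hold for the real calls. With the SW480 groups alone in the fit, neither gene was called (adjusted p 0.336 for AMOTL2 and 0.318 for ANKRD1) and 29 genes were called in all, and with libraries weighted by the spread of their line neither was called (adjusted p 0.102 and 0.307) and 93 genes were. The median log2 change of the 10 genes was -0.23, with 6 below 0, and that of all genes was 0.03. The calls also depend on the libraries: without both gene-rich libraries, of which SW480 Mock replicate 2 enters here, no member was called, at adjusted p of 0.0626 for AMOTL2 and 0.0654 for ANKRD1.

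AMOTL2 had 10.18, 7.03 and 12.76 TPM in SW480 dnLEF1 and 23.71, 35.09 and 16.08 TPM in SW480 Mock. All 3 dnLEF1 libraries were below all 3 Mock libraries and the Mock libraries were spread more widely. The log2 change was -1.21 (SE 0.25, interval -1.74 to -0.67, adjusted p 0.0185). It stayed below 0 in all 12 alternatives, at -1.48 to -0.94, and was called in 7 of them, with adjusted p of 0.00552 to 0.336. Leaving out SW480 dnLEF1 replicate 2, SW480 Mock replicate 1 or SW480 Mock replicate 2 ended the call, with adjusted p of 0.0894, 0.0565 and 0.0545.

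Within the angiomotin family the AMOTL2 share was 58.3% ± 10.2 in SW480 dnLEF1 and 76.2% ± 8.0 in SW480 Mock (SD, n = 3 each). AMOT, the founding member, averaged 7.22 ± 3.75 TPM in SW480 dnLEF1 and 5.95 ± 0.21 TPM in SW480 Mock (SD, n = 3 each) and was not called. The family's summed level was 10.19 to 22.30 TPM in SW480 dnLEF1 and 23.94 to 42.57 TPM in SW480 Mock, with no overlap.

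ANKRD1 had 7.47, 8.23 and 6.87 TPM in SW480 dnLEF1 and 19.21, 14.69 and 13.08 TPM in SW480 Mock. The groups were apart, and the dnLEF1 libraries lay close together. The log2 change was -0.95 (SE 0.24, adjusted p 0.0488), just inside the threshold. It was called in 1 of the 12 alternatives, with adjusted p of 0.0323 to 0.367 and changes of -1.08 to -0.81. Leaving out any 1 of the 6 libraries ended the call, with adjusted p of 0.0543 to 0.175.

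The other 8 genes were not called in SW480. TEAD4 had 25.39, 20.30 and 25.45 TPM in SW480 dnLEF1 and 43.21, 31.80 and 25.01 TPM in SW480 Mock, overlapping by the lowest Mock library (log2 change -0.45, p 0.0197, adjusted p 0.219). AXL had 35.08, 90.20 and 45.32 TPM in SW480 dnLEF1 and 35.78, 53.79 and 23.01 TPM in SW480 Mock, and its log2 change of 0.55 (adjusted p 0.44) came with 1 high dnLEF1 library. WWTR1 (log2 change 0.13), TEAD1 (0.04), LATS2 (0.04) and YAP1 (-0.11) were near 0, and the interval of WWTR1 ran from -0.31 to 0.58. The stromal markers summed to 105.33 to 107.81 TPM in SW480 dnLEF1 and 68.13 to 162.67 TPM in SW480 Mock. The carcinoma markers summed to 11887.30 to 16091.40 TPM in SW480 dnLEF1 and 14603.31 to 18304.52 TPM in SW480 Mock. Of the 7 carcinoma markers tested, 3 had changes above 0 and 4 below 0, and 1 was called, CDX2. It averaged 12.68 TPM in SW480 dnLEF1 and 40.62 TPM in SW480 Mock (log2 change -1.62, adjusted p 0.00696 by limma over all groups). Their part was not tested.

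In SW620 tumours with dnLEF1 WWTR1 rose, the 1 member called of 10, against 0.165% of all genes called. WWTR1 had 12.05, 15.50 and 14.87 TPM in SW620 dnLEF1 and 4.61, 4.70 and 9.05 TPM in SW620 Mock. The groups did not overlap, and all 3 dnLEF1 libraries remained under the lowest SW480 library at 28.68 TPM. The log2 change was 1.14 (SE 0.21, adjusted p 0.0399).

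This call also rested on single libraries and settings. It was made in 3 of 12 alternatives, with adjusted p of 0.00382 to 0.208 and changes of 0.99 to 1.41. Leaving out any dnLEF1 library, SW620 Mock replicate 1 or SW620 Mock replicate 2 ended it, with adjusted p of 0.0798 to 0.208, and without both gene-rich libraries, neither of which belongs to these groups, the adjusted p was 0.0558. With libraries weighted by the spread of their line it was 0.0139. The mitochondrial coding genes held 4.87% to 6.06% of TPM in SW620 dnLEF1 and 3.75% to 4.03% in SW620 Mock. The 20 stromal markers summed to 42.67 to 52.91 TPM in SW620 dnLEF1 and 72.34 to 76.55 TPM in SW620 Mock. The 9 carcinoma markers summed to 7544.19 to 9487.48 TPM in SW620 dnLEF1 and 13038.96 to 14516.73 TPM in SW620 Mock, with no overlap, and all 7 tested had changes below 0, none of them called. The part of any of these in the WWTR1 difference was not tested.

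The SW620 Mock level of WWTR1 was low beside every other SW620 group. WWTR1 had 14.38, 11.39 and 10.66 TPM in LRP6KO and 10.59, 9.41 and 12.31 TPM in Cas9, all above the highest SW620 Mock library at 9.05 TPM. Cas9 against Mock, which uses the same 3 Mock libraries, had a log2 change of 0.77 (SE 0.21, p 0.00197, adjusted p 0.566). In that comparison of the SW620 control groups limma called no member and no gene at all (0%), with 2 members, WWTR1 and TEAD1, and 1154 genes at an unadjusted p under 0.05.

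AMOTL2 and ANKRD1 were not called in SW620 dnLEF1. AMOTL2 had 11.05, 17.89 and 14.92 TPM in SW620 dnLEF1 and 17.76, 15.66 and 18.43 TPM in SW620 Mock, with a log2 change of -0.25 (interval -0.78 to 0.29). ANKRD1 had 0.91, 0.59 and 0.17 TPM in SW620 dnLEF1 and 0.35, 0.21 and 0.43 TPM in SW620 Mock, overlapping at levels under 1 TPM (log2 change 0.20). TEAD4 differed by 0.08 (interval -0.28 to 0.45), and the median over the 10 genes was 0.14, against -0.12 for all genes.

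Whether the dnLEF1 change differed between the lines was tested by subtracting the SW480 change from the SW620 change within the same fit. None of the 10 genes was called by limma, against 0.718% of all genes, and 4 had an unadjusted p under 0.05, as did 12.7% of all genes. WWTR1 differed by 1.01 (SE 0.30, p 0.00369, adjusted p 0.132), ANKRD1 by 1.15 (SE 0.34, p 0.00359, adjusted p 0.131), AMOTL2 by 0.96 (SE 0.36, p 0.0161, adjusted p 0.255) and TEAD4 by 0.53 (SE 0.24, p 0.0452, adjusted p 0.381). WWTR1 was called without SW620 Mock replicate 3 (1.28, adjusted p 0.0381). ANKRD1 in SW620 starts from under 1 TPM, where log2(TPM + 1) leaves little room for a fall.

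Tumours of LRP6KO cells, sorted for low LRP6 protein, had no called change in any of the 10 genes. In LRP6KO against Cas9 limma called no member and no gene at all (0%), with 0 members and 766 genes at an unadjusted p under 0.05, and the counts of calls were also 0 without the gene-rich LRP6KO replicate 1 and SW480 Mock replicate 2. The 10 log2 changes ran from -0.07 for TEAD4 to 0.29 for YAP1, with a median of 0.10. YAP1 had 11.59, 13.06 and 11.33 TPM in LRP6KO and 8.69, 10.47 and 9.68 TPM in Cas9, groups that did not overlap but whose change had an interval of -0.21 to 0.79. AMOTL2 had 24.10, 21.78 and 24.30 TPM in LRP6KO and 21.03, 26.31 and 19.94 TPM in Cas9, within the same range, with an interval of -0.47 to 0.60. The upper ends of these intervals leave room for rises of 0.79 and 0.60 on the log2 scale.

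The order of the 6 groups differed from gene to gene. WWTR1 was highest in SW480 dnLEF1 (33.82 TPM on average) and SW480 Mock (30.72), then in SW620 dnLEF1 (14.14), LRP6KO (12.14), Cas9 (10.77) and Mock (6.12), and the steps without overlap lay between the lines and between SW620 Cas9 and Mock. TEAD4 ran from 82.72 to 88.42 TPM on average in the 4 SW620 groups, which overlapped each other, against 23.71 TPM in SW480 dnLEF1 and 33.34 TPM in SW480 Mock. AMOTL2 did not follow the lines: SW480 Mock (24.96), LRP6KO (23.39) and Cas9 (22.43) overlapped at the top, and SW480 dnLEF1 (9.99) had the lowest mean.

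The other pathway genes were 43 in number, of which VGLL1, VGLL2 and TGFB2 were too low to be tested. Among the 40 tested, limma called 11 in SW620 Mock against SW480 Mock, 3 higher and 8 lower, where 23.9% of all genes were called. None of the 40 was called in the other 5 comparisons. At an unadjusted p under 0.05 there were 7 in SW480 dnLEF1 against Mock, where 15% of all genes reached it, and 4 in SW620 dnLEF1 against Mock, where 8.1% did. There were 1 in LRP6KO against Cas9 (3.33% of all genes), 4 in the difference between lines (12.7%) and 0 in Cas9 against Mock (5.02%). These counts are close to or below the shares of all genes.

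Upstream of YAP1, 4 of 20 genes were called between the lines, a share below the 23.9% of all genes. PTPN14, a phosphatase that binds YAP1 and restrains it, averaged 14.32 ± 2.31 TPM in SW620 Mock and 4.96 ± 2.23 TPM in SW480 Mock (SD, n = 3 each; log2 change 1.43, adjusted p 4.87e-04). STRN3, a striatin of the phosphatase complex that opposes Hippo kinases, was also higher (log2 change 0.74, adjusted p 0.0137). WWC1, known as KIBRA, a scaffold that activates LATS kinases, averaged 4.99 ± 0.65 TPM in SW620 Mock and 15.15 ± 2.02 TPM in SW480 Mock (SD, n = 3 each; log2 change -1.43, adjusted p 1.90e-05). TAOK1, a kinase that activates Hippo kinases, was lower too (log2 change -1.07, adjusted p 0.00777). None of the 4 tested TEAD partners was called.

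Of the 16 targets tested, 7 were called between the lines, against 23.9% of all genes. CTGF was higher and 6 were lower in SW620 Mock. CTGF, a secreted matricellular protein, averaged 10.76 ± 1.82 TPM in SW620 Mock and 2.49 ± 1.19 TPM in SW480 Mock (SD, n = 3 each). The log2 change was 1.80 (SE 0.25, adjusted p 6.37e-05), opposite in sign to ANKRD1. IGFBP3, a carrier of insulin-like growth factors, averaged 3.14 ± 0.76 TPM in SW620 Mock and 341.91 ± 93.44 TPM in SW480 Mock (SD, n = 3 each), a log2 change of -6.35 (adjusted p 9.29e-11).

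NT5E, a cell surface enzyme that makes adenosine (log2 change -2.30), CCDC80, a secreted matrix protein (-2.04), F3, which encodes tissue factor (-1.41), CRIM1, a transmembrane protein (-1.17) and ASAP1, an Arf GTPase-activating protein (-0.66), were the other lower targets, with adjusted p of 1.37e-05 to 0.0378. ASAP1 kept its call in only 2 of 12 alternatives (adjusted p 0.0158 to 0.177) and CRIM1 in 10 (0.0175 to 0.0631). CYR61 (now CCN1), which sits beside CTGF in the same family, averaged 8.17 ± 1.69 TPM in SW620 Mock and 6.22 ± 2.62 TPM in SW480 Mock (SD, n = 3 each) and was not called (log2 change 0.40, adjusted p 0.38). The members known as targets, ANKRD1, AXL, AMOTL2 and LATS2, had changes of -3.63 to -0.44 between the lines, of which ANKRD1 alone was called. CTGF lay at 1.80, and PTPN14, counted here only among the upstream genes, at 1.43.

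**Figure D4:**
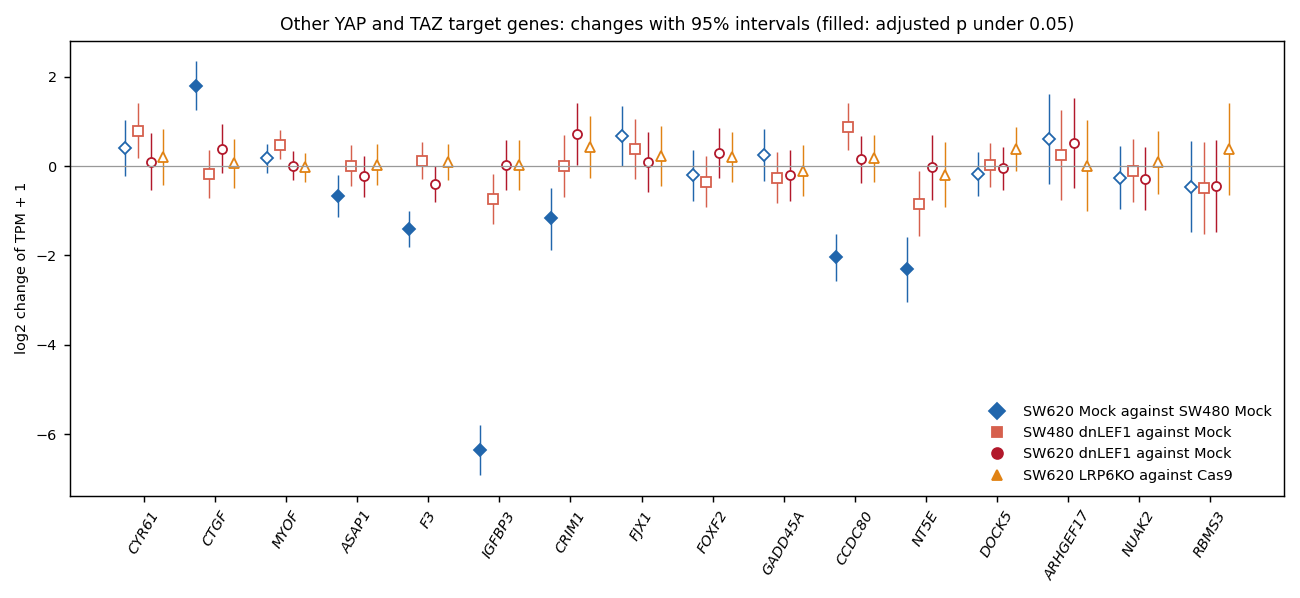
Log2 changes of TPM + 1 of the 16 tested target genes outside the 10 members, with 95% intervals, for 4 comparisons; filled points have an adjusted p under 0.05. In SW620 Mock against SW480 Mock CTGF lies at 1.80 and IGFBP3 at -6.35, and in the dnLEF1 and LRP6KO comparisons all points are open.

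In SW480 dnLEF1 the median of the other targets was 0.01 on the log2 scale, with 9 above 0 and 7 below. CCDC80 had the smallest adjusted p, 0.0862, with 6.61 to 11.36 TPM in SW480 dnLEF1 and 3.16 to 5.51 TPM in SW480 Mock (log2 change 0.87), and without both gene-rich libraries it was called (1.07, adjusted p 0.0366). CYR61 was at 6.88 to 14.15 TPM in SW480 dnLEF1 and 3.55 to 8.78 TPM in SW480 Mock (log2 change 0.79, adjusted p 0.203). IGFBP3 was at 164.02 to 236.00 TPM in SW480 dnLEF1 and 234.08 to 399.15 TPM in SW480 Mock (log2 change -0.73, adjusted p 0.187), and CTGF differed by -0.17. 

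Genes whose pattern was most like those of AMOTL2 and ANKRD1 were ranked by Pearson's r of log2(TPM + 1) over the 18 libraries after centring on each line's mean, among genes with a mean of at least 5 TPM. For ANKRD1 they were ID2 (r = 0.85), OXR1 (0.84) and PPFIBP1 (0.81), and for AMOTL2 SRSF2 (0.92), CARD9 (0.88) and IGF2BP1 (0.87). The r between ANKRD1 and AMOTL2 was 0.62. ANKRD1 was at 0.17 to 0.91 TPM in SW620 and 6.87 to 19.21 TPM in SW480, so its r values rest more on the 6 SW480 libraries. ID2 had 34.04, 42.74 and 37.03 TPM in SW480 dnLEF1 and 111.81, 110.44 and 92.98 TPM in SW480 Mock. These are the highest of 10834 values for ANKRD1 and 10833 for AMOTL2, over libraries that share groups, and are given as a description.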

How the data were processed

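Human transcripts were measured by Smart-seq2, a full-length cDNA method, in 18 xenograft libraries of 6 groups. The values deposited by the authors are TPM per gene. Per the submitters' processing notes, Trimmomatic 0.35, Bowtie 1.2, RSEM 1.2.31 and the builds hg38 and mm10 were used; the gene annotation is not given in the sources used here. Per the labels' protocols, RNA of an integrity number of at least 9 was used. TPM keeps no depth, so no counting interval is given. The 45 second copies of pseudoautosomal genes, all at 0 TPM, were left out, and 58216 of the 58336 other identifiers were joined by identifier without version to GENCODE 29, which gives the coordinates. The mouse table was not used.

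The genes that reached 1 TPM in 3 or more libraries were fitted with limma 3.58.1 (R 4.3.3) on log2(TPM + 1), with an intensity trend, a mean per group and all 6 groups in the fit (12 residual degrees of freedom). Each of the 6 comparisons had its p-values adjusted over all genes by the Benjamini-Hochberg method, and 0.05 was the threshold. The fit was tested on data simulated with each line's own spread, in which a small set of genes was made to change. For the comparison of the lines, the other genes were given equal means in both lines. A share of false calls depends on how many genes truly change, so these shares need not hold for the real calls. For SW480 dnLEF1 against Mock more of the fit's calls were false than true. False calls also exceeded the threshold in the comparison of the lines and in the difference of the dnLEF1 changes. With the compared groups alone, fewer calls were false in these comparisons. Other fits changed the added amount to 0.1, dropped the filter, scaled libraries by median ratios, fitted the compared groups alone, used array weights, took replicate numbers as a block or left out 1 library at a time; leaving out both gene-rich libraries and weighting libraries by the spread of their line were added after the data were seen. Shares, sums and motifs were computed with Python 3.11.15, pandas 2.3.3 and numpy 2.4.6, and figures with matplotlib 3.10.9. Promoter sequences are RefSeq's, in GRCh38.p14.

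Named were the 10 members, the other pathway genes with an adjusted p under 0.05 (up to 6 per list and comparison, by smallest p), CYR61 and CTGF. Also named were the 3 genes most like each of ANKRD1 and AMOTL2, and LEF1, AXIN2 and LRP6 as checks of the labels. ASAP1, the SW480 dnLEF1 values of CCDC80 and IGFBP3, and TEAD2, TEAD3, AMOT, LATS1, LUM and CDX2 were chosen after their values were seen. KRT8, KRT18, KRT20, CDH17 and LGALS4 were also named with their values known. So were the marker lists that are given apart from the sums. The members and lists were chosen with earlier results of these data known.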

Additional observations from a re-analysis of the deposited data

How the results depend on the processing

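The 5 members called between the lines were 5 to 6 under other settings and 5 to 7 with a library left out. For SW480 dnLEF1 against Mock, 2 members were called as reported, 1 with 0.1 added before the logarithm, 1 without the filter on low values, 0 with only the compared groups, 0 with array weights, 0 with libraries weighted by the spread of their line, 0 without both gene-rich libraries, and 0 to 1 with a library left out. For SW620 dnLEF1 against Mock, 1 was called as reported, 0 with 0.1 added, 0 without the filter, 0 with only the compared groups, 0 without both gene-rich libraries, and 0 to 1 with a library left out. For the difference of the dnLEF1 changes the range was 0 to 1. No value changed sign where it was called, and no member was called in LRP6KO against Cas9 or Cas9 against Mock. The cause of these shifts was not tested.

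The labels do not say whether replicate numbers pair the libraries. Same-numbered libraries deviated from their group means with r of -0.133 to 0.117, and a low r cannot show that they shared no day or batch. With the replicate number as a block 1 member was called in SW480 dnLEF1 (AMOTL2, adjusted p 0.0354) and 0 in SW620 dnLEF1 (WWTR1, adjusted p 0.0618).

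Over all genes, the 512 calls of SW480 dnLEF1 were 29 with only the compared groups, 261 with array weights, 93 weighted by line, 333 with 0.1 added and 258 to 1214 with a library left out. The 38 of SW620 dnLEF1 were 21 with 0.1 added, 120 with only the compared groups, 394 with array weights, 150 weighted by line and 17 to 26 with a library left out. The 165 of the difference were 43 with only the compared groups, 358 with array weights, 97 weighted by line, 319 without both gene-rich libraries, 108 with median-ratio scaling and 66 to 801 with a library left out. LRP6KO against Cas9 gave 0 to 10 and Cas9 against Mock 0 to 101. Median-ratio scaling turned 311 higher and 201 lower into 190 and 225 in SW480 dnLEF1, 13 and 25 into 21 and 17 in SW620 dnLEF1, and 41 and 124 into 54 and 54 in the difference.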
